A study of Homo sapiens with 24 samples.

Results

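The genes described here are 10 members of the bone morphogenetic protein (BMP) pathway: the ligands BMP4 and BMP2, the target genes ID1, ID2, ID3 and ID4, the inhibitory SMADs SMAD6 and SMAD7, and the homeobox genes MSX1 and MSX2. They were chosen by gene symbol among the non-control probes of an Agilent whole human genome array, which gave 11 probes of 34127, and the rule uses no measured value. RNA came from HCT-116 cells, an established human colorectal carcinoma line, and all 24 arrays, controls included, were of 1 clone that stably carried the Tet repressor and a doxycycline-inducible dominant negative Tcf4 (DN-Tcf4). DN-Tcf4 occupies Tcf binding sites without recruiting beta-catenin and so blocks Wnt transcription. The 4 treatments, each in 6 experiments numbered alike, were no agent (Ctl), 5 mM sodium butyrate for 17.5 hr (NaB), doxycycline at 4 µg per ml (Doxy), and doxycycline with butyrate (DoxyNaB). Butyrate is a product of fiber fermentation that inhibits histone deacetylases. No doxycycline-treated cells without the construct were among the arrays, so an effect of doxycycline itself and one of DN-Tcf4 cannot be told apart. The study asked which responses to butyrate depend on Wnt activity, and the comparisons were NaB with Ctl, DoxyNaB with Doxy, Doxy with Ctl, DoxyNaB with NaB, and the change with butyrate in the absence of doxycycline minus that in its presence (the interaction). NaB/Ctl and DoxyNaB/Doxy have no array in common, nor do Doxy/Ctl and DoxyNaB/NaB; every other pair of comparisons shares arrays.

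BMP ligands are secreted proteins of the transforming growth factor beta superfamily. They bind paired serine/threonine kinase receptors, which phosphorylate SMAD1, SMAD5 and SMAD9; these join SMAD4 and enter the nucleus. ID1 to ID4 are immediate targets of that complex and encode helix-loop-helix proteins with no DNA binding region, which hold E proteins away from DNA. SMAD6 and SMAD7 are induced by the pathway and shut it off, and MSX1 and MSX2 are homeodomain repressors that respond to BMP and Wnt signals in developing tissue. In the colon, BMP signaling is strongest toward the differentiated end of the crypt, opposite to Wnt signaling.

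An array probe reports on the stretch of RNA it matches, so the probes on which the largest and the least alike results rest are shown. The BMP4 probe is at chr14:53487068-53487127 on the minus strand (NCBI36), the ID2 probe on the plus strand between 8740093 and 8740481 of chromosome 2, a span of 389 bases for 60 probe bases, so that it joins sequence across a gap in the genome, and the ID3 probe at chr1:23758253-23758312 on the minus strand. Each is written 5′ to 3′, and the capitals in the ID2 probe mark its in-frame stop codon, at which the printed stretch ends.
BMP4 probe: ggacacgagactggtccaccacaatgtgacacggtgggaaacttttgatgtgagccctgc
ID2 probe: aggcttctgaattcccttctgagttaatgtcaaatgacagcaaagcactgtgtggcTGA
ID3 probe: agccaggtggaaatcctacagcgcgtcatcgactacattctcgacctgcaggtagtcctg
The other probes lie at chr20:6708810-6708869 (BMP2, plus strand), chr20:29657819-29657878 (ID1, plus), chr2:8741733-8741792 (the second ID2 probe, plus), chr6:19948820-19948879 (ID4, plus), chr15:64861317-64861376 (SMAD6, plus), chr18:44700780-44700839 (SMAD7, minus), chr4:4915945-4916004 (MSX1, plus) and chr5:174089553-174089612 (MSX2, plus). Their exon and untranslated region annotation was not assigned here. The MSX1 probe was printed in 10 spots per array, and the others in 1.

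Because DN-Tcf4 acts at Tcf sites, 250 bases upstream of the RefSeq starts (GRCh38.p14) of the members were searched on both strands for the Tcf core CTTTG, its longer form CTTTGAT, the SMAD element CAGAC and the GC-rich SMAD1/5 element GGCGCC; the short motif is contained in the long one. BMP2 was not matched. No member window held CTTTGAT, which 2.26% of all 35116 windows held. CTTTG stood in windows of BMP4, ID3, SMAD6 and SMAD7 and in none of ID1, ID2, ID4, MSX1 or MSX2, beside 42.1% of all windows. BMP4 and SMAD7 each have several windows, not all of which held CTTTG, so a count of genes is unlike that share of windows. CAGAC stood in windows of BMP4, ID3, ID4 and SMAD7, beside 38.0% of all windows. GGCGCC stood in 1 BMP4 window and in no other member window, beside 16.4% of all windows. Of the 3 BMP4 starts listed, 1 window had 3 copies of CTTTG, and it is shown with the ID3 window, which held 1 copy each of CTTTG and CAGAC; motifs are in capitals, and CAAAG and GTCTG are CTTTG and CAGAC on the other strand. The BMP4 window is chr14:53955051-53955300 and the ID3 window chr1:23559502-23559751, both on the minus strand.
BMP4 window: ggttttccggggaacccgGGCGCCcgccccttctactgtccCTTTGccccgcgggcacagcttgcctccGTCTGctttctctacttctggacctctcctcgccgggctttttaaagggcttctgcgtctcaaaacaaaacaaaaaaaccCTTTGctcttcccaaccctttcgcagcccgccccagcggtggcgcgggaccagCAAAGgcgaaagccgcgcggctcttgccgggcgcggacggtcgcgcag
ID3 window: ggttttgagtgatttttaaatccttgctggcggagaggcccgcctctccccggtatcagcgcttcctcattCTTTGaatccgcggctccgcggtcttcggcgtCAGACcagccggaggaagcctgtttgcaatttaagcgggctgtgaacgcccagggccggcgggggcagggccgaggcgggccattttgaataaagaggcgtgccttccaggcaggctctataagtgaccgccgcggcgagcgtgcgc
A match is a description of the letters and not a binding site.

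Signals were read as log2 of the processed signal minus log2 of the 75th percentile of the array, so a level of 0 is a signal equal to that percentile (380.2 to 1323 signal units over the arrays). A level of bulk RNA cannot tell fewer expressing cells from less RNA per cell. Of the 11 probes, 9 were tested, for 8 of the 10 genes, along with 18962 probes in all. BMP2 was not well above background on any of the 24 arrays, at signals of 4.39 to 42.4, and ID4 was well above background on 4 of 6 Ctl, 4 of 6 NaB, 3 of 6 Doxy and 1 of 6 DoxyNaB arrays, at signals of 8.02 to 61.4, so neither was tested. The epithelial markers KRT8, KRT18, CDH1, CDX1 and CDX2 were well above background on all 6 Ctl arrays, and EPCAM on all 5 on which it was measured, while KRT20 was so on 2 and VIL1, which marks the brush border, on 0. Of 9 markers of other cell types, COL3A1 was above background on no Ctl array, and COL1A1 and CD14 on all 6, at mean log2 levels of -1.57 and -4.32; the others were so on 3 to 5. AXIN2, a direct Wnt target, rose with butyrate by 1.19 ± 0.09 (SE) on the log2 scale fell by 0.58 ± 0.09 with doxycycline alone, and fell by 2.53 ± 0.09 with doxycycline in the presence of butyrate (adjusted p = 2.06e-09, 0.00289 and 2.63e-11). Among 3 tested probes of TCF7L2, the gene of Tcf4, the probes starting at 114901475 and 114915968 of chromosome 10 rose by 2.96 ± 0.36 and 4.46 ± 0.42 in DoxyNaB over NaB, and the probe starting at 114714311 fell by 1.25 ± 0.25 (adjusted p = 3.64e-05, 1.77e-06 and 0.00568). In NaB over Ctl, without doxycycline, the same 3 probes were at 0.91 ± 0.36, 1.90 ± 0.42 and -0.08 ± 0.25 (adjusted p = 0.0294, 0.000468 and 0.777), of which the second passed. None of the 3 passed in Doxy against Ctl (adjusted p = 0.921, 0.861 and 0.618, in the same order). In DoxyNaB over Doxy they were at 4.04 ± 0.36, 6.06 ± 0.42 and -1.70 ± 0.25, and AXIN2 was at -0.76 ± 0.09. The paper reports DN-Tcf4 protein as minimal with doxycycline alone and high with both agents. A change in DoxyNaB/Doxy, and so the interaction, therefore holds both butyrate and the rise of DN-Tcf4, and these cannot be told apart. Arrays of experiments 2 to 4 shared 1 scan date and had 78.4% to 88.1% of spots well above background, and those of experiments 1, 5 and 6 had 52.7% to 62.6%.

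**Figure D1:**
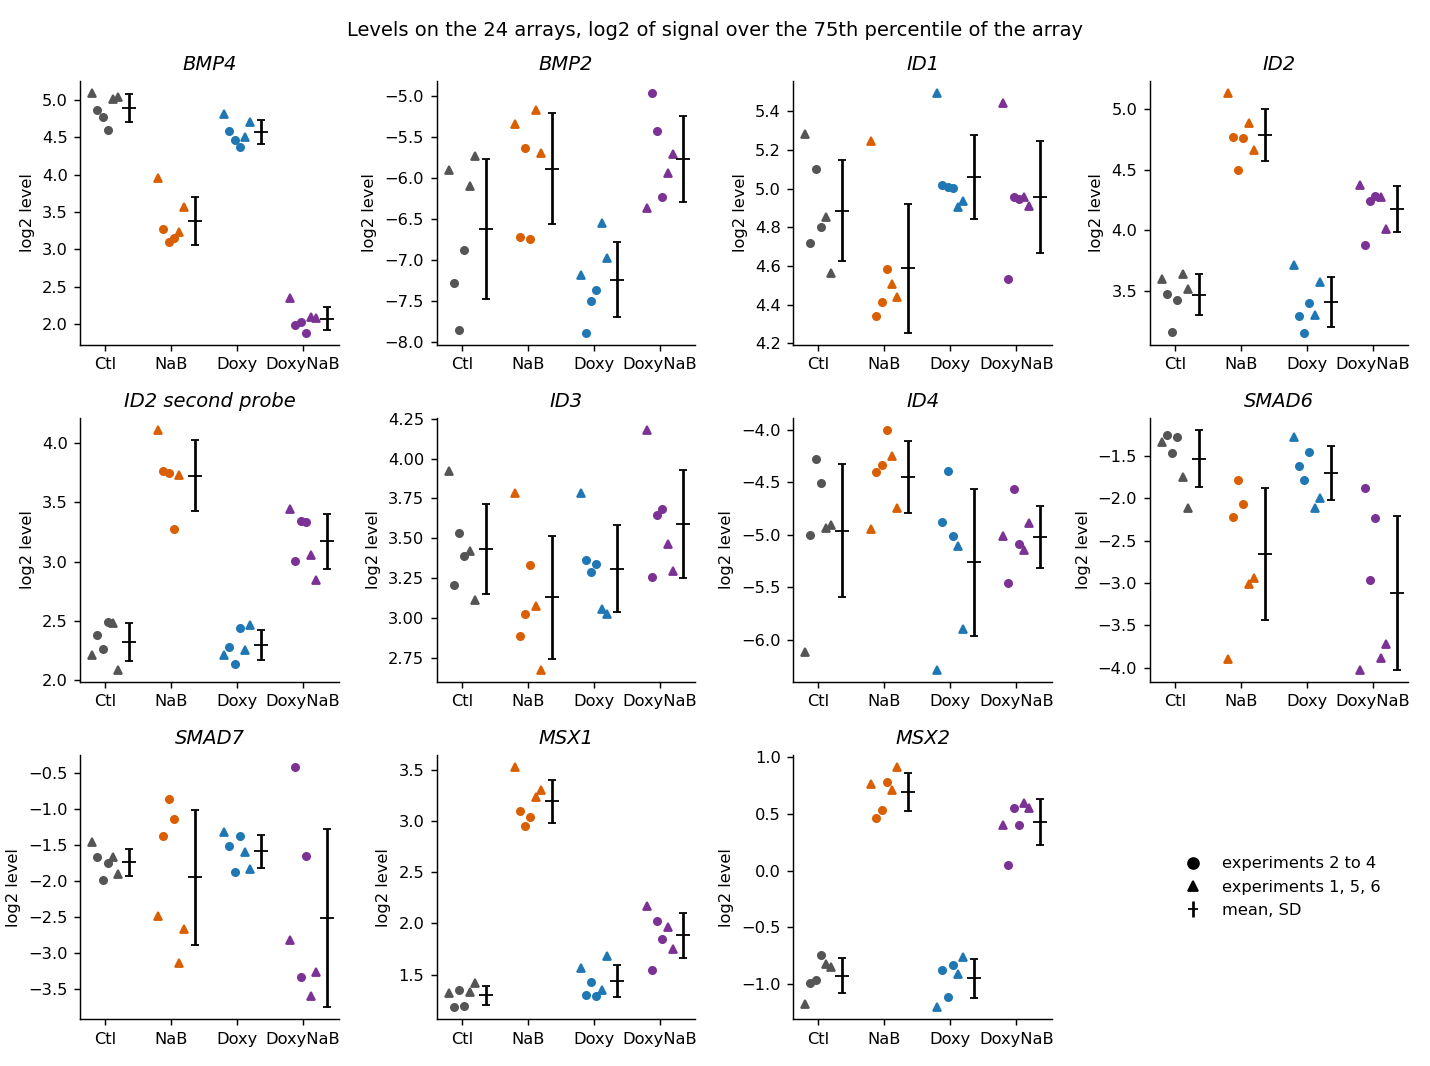
Log2 level (signal over the 75th percentile of the array) of each of the 11 probes on each of 24 arrays, by treatment, with circles for experiments 2 to 4, triangles for experiments 1, 5 and 6, and the mean with its SD over 6 arrays (5 for the second ID2 probe in NaB). BMP4 steps down from Ctl (mean 4.90) to NaB (3.38) to DoxyNaB (2.07), while MSX1 is high in NaB alone (3.19); BMP2 and ID4 were not tested.

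Butyrate changed 7 of the 8 tested genes in the absence of doxycycline, in both directions: ID2, MSX1 and MSX2 rose, and BMP4, SMAD6, ID1 and ID3 fell. Of all probes tested, 40.1% rose and 28.2% fell in the same comparison at the same threshold, an adjusted p below 0.01. By more than 2-fold, 3 members rose and 2 fell, beside 20.7% and 11% of all probes. The members' median log2 change was -0.25 and that of all probes was 0.17. In the presence of doxycycline, ID2, ID3, MSX1 and MSX2 rose and BMP4 and SMAD6 fell, beside 37.3% of all probes that rose and 29.7% that fell. MSX2 was the member that rose more than 2-fold there, and BMP4 and SMAD6 fell by more than 2-fold, beside 18.3% and 12.3% of all probes. The members' median was 0.09 and that of all probes 0.10. These shares are of the probes tested, and the counts of members and of the pathway lists below are to be read against them.

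BMP4, whose product is the ligand, had the largest fall of the members. In Ctl its log2 level had a minimum, median and maximum of 4.59, 4.94 and 5.09. In NaB they were 3.101, 3.25 and 3.95. In Doxy they were 4.36, 4.54 and 4.81, and in DoxyNaB 1.88, 2.06 and 2.35. All 6 NaB arrays were below all Ctl arrays, all DoxyNaB arrays were below all NaB arrays, and the Doxy and Ctl ranges overlapped. Butyrate lowered BMP4 by 1.52 ± 0.22 (SD, n = 6) on the log2 scale, or 2.86-fold (adjusted p = 1.69e-12), without doxycycline. With doxycycline BMP4 fell by 2.50 ± 0.09, or 5.67-fold (adjusted p = 3.60e-15), and the 6 experiments lay between -2.62 and -2.41. The fall was deeper with doxycycline in 6 of 6 experiments, by 0.99 ± 0.25 (adjusted p = 1.48e-05).

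BMP6 and the paired genes BMP8A and BMP8B encode other BMP ligands, and they moved the other way. Of 12 other ligands listed, 4 were tested, 3 rose with butyrate alone and 0 fell, with a median of 1.77, and 3 rose and 1 fell in the presence of doxycycline, beside the 40.1% and 28.2% of all probes that rose and fell without doxycycline and the 37.3% and 29.7% with it. BMP6 rose by 2.47 ± 0.20 (SD, n = 6) and 2.21 ± 0.16 on the log2 scale without and with doxycycline (adjusted p = 6.02e-14 and 2.16e-13). BMP8A rose by 2.49 ± 0.34 and 2.68 ± 0.39, and BMP8B by 1.06 ± 0.24 and 0.94 ± 0.14. BMP8A and BMP8B are close copies, and signal may be shared between their probes. BMP7 fell by 0.62 ± 0.41 with doxycycline present (adjusted p = 0.0037) and was at -0.50 ± 0.47 without it (adjusted p = 0.0144), with an interaction of 0.12 (adjusted p = 0.906).

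The ID genes, whose products sequester E proteins, did not move alike. ID2 rose strongly. Its log2 level had a minimum, median and maximum of 3.16, 3.49 and 3.64 in Ctl, 4.50, 4.77 and 5.13 in NaB, 3.16, 3.35 and 3.72 in Doxy, and 3.88, 4.26 and 4.38 in DoxyNaB. The arrays with butyrate were above all arrays without it, and the DoxyNaB arrays were below all NaB arrays. The rise was 1.32 ± 0.13 (SD, n = 6) without doxycycline (2.49-fold, adjusted p = 1.28e-10) and 0.77 ± 0.25 with it (1.71-fold, adjusted p = 1.96e-07). It was smaller with doxycycline in 6 of 6 experiments, by 0.55 ± 0.26, and that difference missed the threshold (adjusted p = 0.0195). After scaling to the median, both rises missed the threshold, at 0.59 and 0.23 (adjusted p = 0.0189 and 0.355), which was 1.15 and 0.67 above the median of all probes. The second ID2 probe gave 1.38 ± 0.13 (SE of the fit) and 0.87 ± 0.13, and its NaB array of experiment 6 was left out of the fit because the scanner software marked the spot as an outlier.

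ID1 and ID3 were lower with butyrate alone, by amounts close to the spread between experiments. The log2 level of ID1 had a minimum, median and maximum of 4.56, 4.83 and 5.28 in Ctl, 4.34, 4.47 and 5.25 in NaB, 4.90, 5.00 and 5.49 in Doxy and 4.53, 4.95 and 5.44 in DoxyNaB. For ID3 the same figures were 3.11, 3.41 and 3.92 in Ctl, 2.67, 3.05 and 3.78 in NaB, 3.02, 3.31 and 3.78 in Doxy and 3.26, 3.55 and 4.18 in DoxyNaB. All 4 ranges overlapped for both genes, and the highest value in each treatment came from experiment 1. ID1 fell by 0.30 ± 0.23 with butyrate alone (adjusted p = 0.00249), lower in 6 of 6 experiments, and its value with doxycycline was -0.10 ± 0.19 (adjusted p = 0.252). ID3 fell by 0.30 ± 0.17 without doxycycline (adjusted p = 0.00118) and rose by 0.28 ± 0.19 with it (adjusted p = 0.00243, higher in 5 of 6 experiments). The interaction was -0.58 ± 0.24 for ID3, lower in 6 of 6 experiments (adjusted p = 0.00345). These calls were fragile. Quantile normalization took the ID3 change with butyrate alone to -0.07 (adjusted p = 0.327) and that of ID1 to -0.16 (adjusted p = 0.0231). With normexp background correction the ID3 values without and with doxycycline were -0.18 and 0.21 (adjusted p = 0.194 and 0.116), and ID1 was at -0.11 without it (adjusted p = 0.428). Without the block for experiment the ID1 and ID3 changes with butyrate alone had adjusted p = 0.107 and 0.152, and leaving out any 1 of experiments 1, 3, 4, 5 and 6 took the ID3 interaction to an adjusted p of 0.0188, 0.0396, 0.0154, 0.0362 and 0.0334. When arrays were scaled to their median, the ID3 change in DoxyNaB over Doxy turned to -0.26 (adjusted p = 0.288), beside a median of all probes of -0.44, so it was 0.18 above that median.

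Of the 3 E protein genes, all tested, the partners that ID proteins bind, TCF4, which encodes E2-2 and is not the gene of the Wnt factor Tcf4, rose and the other 2 fell with butyrate. TCF4 rose by 1.90 ± 0.29 (SE) and 1.56 ± 0.29 without and with doxycycline (adjusted p = 9.74e-06 and 9.18e-05). It was well above background on only 18 of 24 arrays. Its SD over the experiments was 0.93 and 0.79, and it was higher in 6 of 6 experiments in both comparisons. TCF3 fell by 1.04 ± 0.06 and 0.88 ± 0.06, and TCF12 by 0.86 ± 0.18 and 0.83 ± 0.18. All 3 were thus called, beside the 40.1% and 28.2% of all probes that rose and fell without doxycycline. None passed in Doxy/Ctl, in DoxyNaB/NaB or in the interaction. Of all probes, 0.411%, 0.617% and 1.02% were called above 0 there and 0.0897%, 1.87% and 0.216% below 0.

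SMAD6, an inhibitory SMAD that acts chiefly on BMP receptors, was lower with butyrate in every experiment. Its log2 level had a minimum, median and maximum of -2.11, -1.40 and -1.25 in Ctl, -3.90, -2.58 and -1.78 in NaB, -2.11, -1.70 and -1.28 in Doxy and -4.02, -3.34 and -1.88 in DoxyNaB. The ranges with and without butyrate overlapped. SMAD6 fell by 1.12 ± 0.77 (SD, n = 6) and 1.41 ± 0.87 without and with doxycycline (adjusted p = 0.00124 and 0.000152). With normexp background correction the values were -0.81 and -0.46, and the second missed the threshold (adjusted p = 0.00538 and 0.0842). Within experiments 2 to 4 the values were -0.69 and -0.74 (adjusted p = 0.0285 and 0.0226), and within experiments 5 and 6 they were -1.04 and -1.75 (adjusted p = 0.00157 and 0.000226). Experiment 1, whose arrays with and without butyrate were on separate slides and scan dates, gave -2.56 and -2.74, and there slide and butyrate cannot be told apart.

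SMAD7, which blocks both BMP and transforming growth factor beta receptors, gave opposite signs in different experiments. Its log2 level had a minimum, median and maximum of -1.99, -1.71 and -1.46 in Ctl, -3.15, -1.94 and -0.86 in NaB, -1.88, -1.56 and -1.32 in Doxy and -3.60, -3.05 and -0.42 in DoxyNaB. The values in NaB over Ctl were 0.29, 1.14 and 0.61 in experiments 2, 3 and 4 and -1.03, -1.47 and -0.77 in experiments 1, 5 and 6. SMAD7 passed in neither comparison over the 6 experiments, at -0.21 ± 1.03 (adjusted p = 0.632) and -0.93 ± 1.14 (adjusted p = 0.0359). Both passed after scaling to the median, at -0.94 and -1.47 (adjusted p = 0.0013 and 1.06e-05), and the second did so after quantile normalization, at -1.09 (adjusted p = 0.00672). Within experiments 5 and 6 it was lower, at -1.12 and -1.71 (adjusted p = 0.00422 and 0.000768), and within experiments 2 to 4 the values were 0.68 and -0.21 (adjusted p = 0.273 and 0.738). The array background moved with these values. On the butyrate arrays of experiments 2 to 4, the negative control probes had a mean net signal of 69.1 to 248.9, and on those of experiments 1, 5 and 6 of 48.8 to 64.3. The DoxyNaB arrays of experiments 2 and 3, from the same scan date, had negative controls at 248.9 and 69.1 and SMAD7 at log2 levels of -0.42 and -3.34. Without the 2 arrays of brightest negative controls, SMAD7 was at -0.49 (adjusted p = 0.0867) and -1.28 (adjusted p = 0.000244), and SMAD6 at -1.27 and -1.59 (adjusted p = 0.000214 and 2.32e-05). With normexp background correction SMAD7 was at -0.12 and -0.23 (adjusted p = 0.753 and 0.499).

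**Figure D2:**
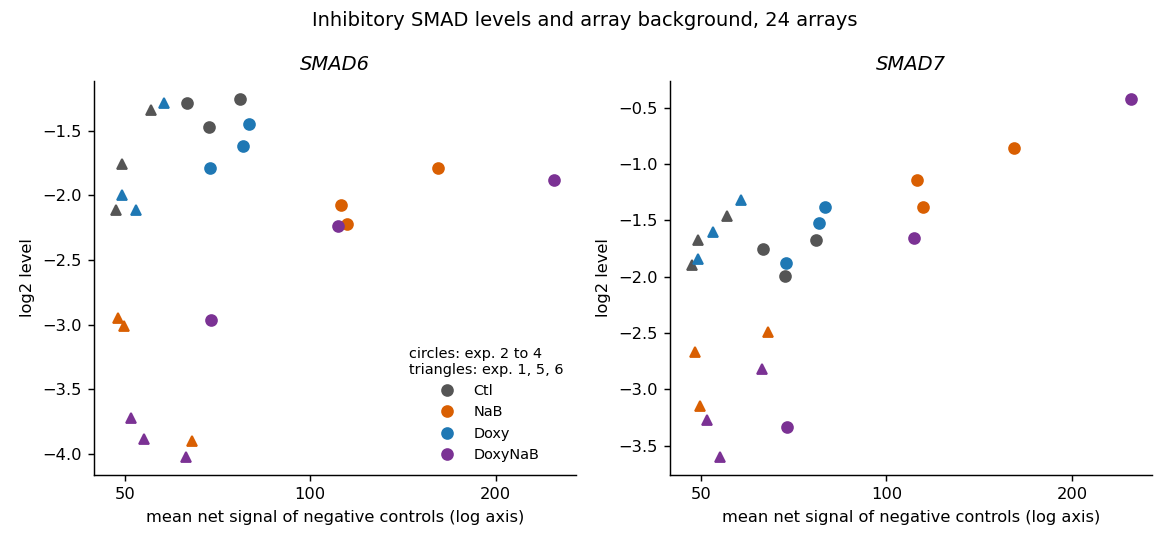
Log2 level of SMAD6 (left) and SMAD7 (right) against the mean net signal of negative control probes (log axis) on 24 arrays, coloured by treatment, with circles for experiments 2 to 4 and triangles for the others. The 2 arrays of brightest negative controls, at 161.0 and 248.9, hold the highest 2 SMAD7 levels, -0.86 and -0.42.

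MSX1 and MSX2, homeodomain repressors that are BMP and Wnt targets in development, rose with butyrate in every experiment. The log2 level of MSX1 had a minimum, median and maximum of 1.19, 1.33 and 1.42 in Ctl, 2.95, 3.16 and 3.52 in NaB, 1.29, 1.39 and 1.68 in Doxy and 1.55, 1.91 and 2.17 in DoxyNaB. All NaB arrays were above every other array, and the DoxyNaB range overlapped that of Doxy. MSX1 rose by 1.89 ± 0.19 (SD, n = 6; 3.71-fold, adjusted p = 5.77e-13) without doxycycline and by 0.45 ± 0.23 (1.36-fold, adjusted p = 8.07e-05) with it. The difference of 1.44 ± 0.30 was positive in 6 of 6 experiments (adjusted p = 6.82e-07). After scaling to the median, the second value turned to -0.09 (adjusted p = 0.727), which was 0.34 above the median of all probes. With normexp background correction it was 0.31 (adjusted p = 0.0256), or 0.09 above that median.

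MSX2 kept most of its rise when doxycycline was present. Its log2 level had a minimum, median and maximum of -1.18, -0.91 and -0.74 in Ctl, 0.47, 0.74 and 0.91 in NaB, -1.20, -0.90 and -0.77 in Doxy and 0.05, 0.48 and 0.60 in DoxyNaB. The arrays with butyrate were above all arrays without it, and the NaB and DoxyNaB ranges overlapped. The rises were 1.62 ± 0.19 (3.08-fold, adjusted p = 6.73e-12) and 1.38 ± 0.28 (2.60-fold, adjusted p = 5.81e-11). Their difference of 0.24 ± 0.26 missed the threshold (adjusted p = 0.435), and the difference between MSX1 and MSX2 was itself not tested.

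**Figure D3:**
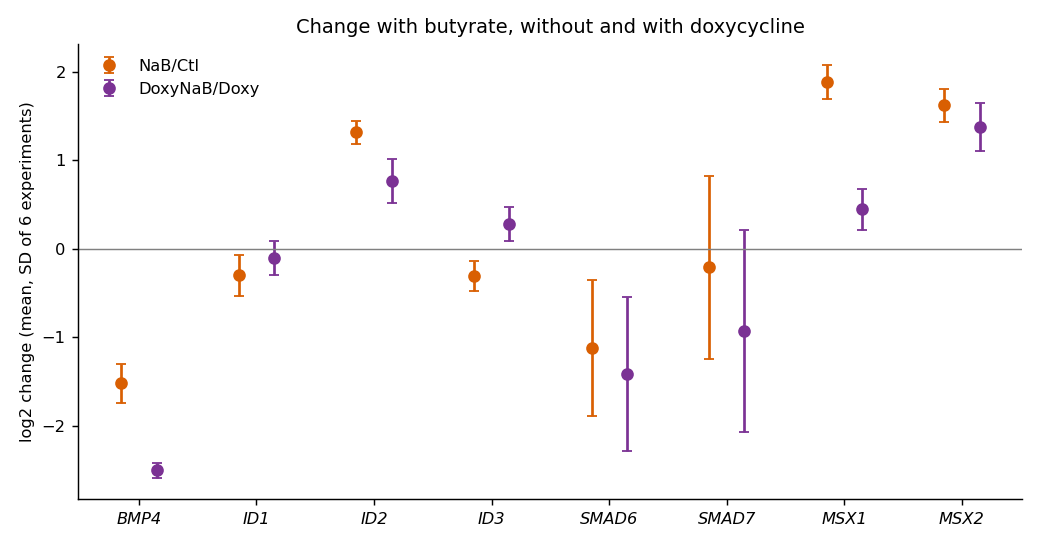
Mean log2 change with butyrate in the 8 tested genes without doxycycline (NaB/Ctl, orange) and with it (DoxyNaB/Doxy, purple), with bars for the SD over 6 experiments. BMP4 fell further with doxycycline (-2.50 beside -1.52), MSX1 rose less (0.45 beside 1.89), and the SMAD6 and SMAD7 bars are the widest.

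Over all probes, 1.02% had an interaction above 0 and 0.216% one below 0 at an adjusted p below 0.01. Of the 8 members, BMP4 and MSX1 passed above 0 and ID3 below 0. For MSX1 the positive value is a smaller rise with doxycycline, and for BMP4 it is a deeper fall. After scaling to the median none of the 3 passed (adjusted p = 0.982, 0.293 and 0.982 for BMP4, MSX1 and ID3), although the signs held, at 0.79, 1.25 and -0.77. Within experiments 2 to 4 and within experiments 5 and 6, BMP4 gave 0.94 and 0.89 (adjusted p = 0.0478 and 0.173), MSX1 gave 1.32 and 1.54 (adjusted p = 0.0452 and 0.0962), and ID3 gave -0.50 and -0.73 (adjusted p = 0.781 and 0.211).

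With doxycycline in the absence of butyrate, none of the 8 members passed by limma (0 called at an adjusted p below 0.01), where 0.411% of all probes rose and 0.0897% fell. At an unadjusted p below 0.05 limma had 2 of the 8, and the share of all probes at that level was not counted. At the stricter unadjusted p below 0.01 the paired test of the study's methods had 1, beside 1340 of all 18962 probes. After Benjamini-Hochberg adjustment it had 0, beside 10 of all probes. BMP4 was nearest, at -0.32 ± 0.10 (SD, n = 6; adjusted p = 0.0319), lower in 6 of 6 experiments. MSX1 was at 0.14 ± 0.09 and SMAD7 at 0.15 ± 0.11, each higher in 6 of 6 experiments (adjusted p = 0.534 and 0.939).

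In the presence of butyrate, doxycycline lowered BMP4, MSX1 and ID2 and raised ID1 and ID3, beside 1.87% of all probes that fell and 0.617% that rose. BMP4 fell by 1.31 ± 0.20 (2.48-fold, adjusted p = 1.86e-09) and MSX1 by 1.30 ± 0.24 (2.47-fold, adjusted p = 1.32e-08), and neither range overlapped between NaB and DoxyNaB. ID2 fell by 0.61 ± 0.22 (adjusted p = 0.000178), and its second probe, at -0.53 ± 0.13 (SE), missed the threshold (adjusted p = 0.0258). ID3 rose by 0.46 ± 0.12 (adjusted p = 0.000738) and ID1 by 0.37 ± 0.15 (adjusted p = 0.00927), each in 6 of 6 experiments. The ID1 call was lost when any 1 of experiments 1, 3, 4, 5 and 6 was left out (adjusted p = 0.0183, 0.0342, 0.0568, 0.0697 and 0.0475), and the ID3 call without experiment 6 (adjusted p = 0.011). Without the block for experiment, ID1 and ID3 had adjusted p = 0.514 and 0.415. MSX2 was at -0.27 ± 0.18 (adjusted p = 0.0868), SMAD6 at -0.46 ± 0.57 (adjusted p = 0.472) and SMAD7 at -0.57 ± 1.10 (adjusted p = 0.545). The members' median was -0.51 and that of all probes -0.03.

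**Figure D4:**
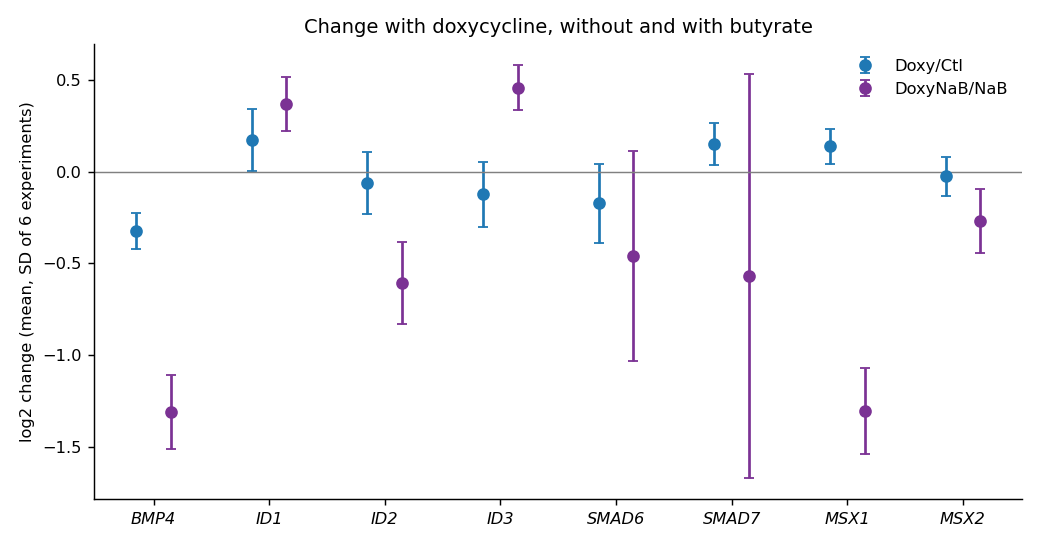
Mean log2 change with doxycycline in the 8 tested genes without butyrate (Doxy/Ctl, blue) and with it (DoxyNaB/NaB, purple), with bars for the SD over 6 experiments. Without butyrate the means lie between -0.32 and 0.17, and with butyrate BMP4 and MSX1 lie at -1.31 and -1.30.

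The receptors, transducers and antagonists around these genes also responded to butyrate in both directions. Of 11 receptors and co-receptors, 7 were tested, and 4 rose and 2 fell with butyrate alone (40.1% and 28.2% of all probes), while 5 rose and 2 fell with doxycycline present (37.3% and 29.7% of all probes). ACVR2A, a type II receptor, rose by 1.51 ± 0.17 (SE) and 1.22 ± 0.17, and ACVR2B, another type II receptor, fell by 1.51 ± 0.13 and 1.61 ± 0.13. BMPR2 rose by 1.79 ± 0.45 with doxycycline present (adjusted p = 0.00167), and was at 0.99 ± 0.45 without it (adjusted p = 0.0554). The co-receptor RGMB rose by 0.76 ± 0.09 and 0.50 ± 0.09. No receptor passed in Doxy/Ctl, in DoxyNaB/NaB or in the interaction, where few of all probes did. Above and below 0, the shares of all probes were 0.411% and 0.0897%, 0.617% and 1.87%, and 1.02% and 0.216%, in that order.

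Among the 4 signal-transducing SMADs, all tested, SMAD1 fell by 1.57 ± 0.16 (SE) and 1.94 ± 0.16 without and with doxycycline (adjusted p = 9.60e-08 and 7.51e-09). SMAD9 rose by 1.46 ± 0.26 without doxycycline (adjusted p = 4.93e-05) and was at 0.69 ± 0.26 with it (adjusted p = 0.0216), and it was well above background on 18 of 24 arrays. SMAD5 and the common partner SMAD4 were at 0.05 and -0.07 in NaB over Ctl (adjusted p = 0.678 and 0.48).

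Of 15 antagonists and the pseudoreceptor, 5 were tested, and 2 rose and 1 fell with butyrate in both comparisons, beside 40.1% and 28.2% of all probes without doxycycline and 37.3% and 29.7% with it. NOG (noggin), which binds and blocks BMP4, rose by 2.04 ± 0.11 (SE) and 1.29 ± 0.11 without and with doxycycline (adjusted p = 1.79e-11 and 1.02e-08). BAMBI, a pseudoreceptor with no kinase region, rose by 2.07 ± 0.07 and 1.72 ± 0.07, and fell by 0.44 ± 0.07 in DoxyNaB against NaB (adjusted p = 0.000773). NBL1 fell by 0.93 ± 0.06 and 0.94 ± 0.06.

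Of 8 ubiquitin ligases and nuclear co-regulators, 5 were tested, and 2 rose and 2 fell with butyrate in both comparisons, in which 40.1% and 37.3% of all probes rose and 28.2% and 29.7% fell. TGIF1, a homeodomain co-repressor of SMADs, fell by 2.38 ± 0.08 (SE) without doxycycline and 3.19 ± 0.08 with it, with an interaction of 0.81 ± 0.12 (adjusted p = 0.000468). SMURF2, a ubiquitin ligase that acts on SMADs and receptors, fell by 0.88 ± 0.20 and 1.55 ± 0.20, the co-repressor SKI rose by 0.46 ± 0.11 and 1.12 ± 0.11, and the phosphatase PPM1A rose by 0.65 ± 0.15 and 0.57 ± 0.15.

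Of 12 other transcription factors that BMP induces, 6 were tested, and 5 rose and 1 fell with butyrate in both comparisons, with medians of 1.48 and 0.86. Over all probes 40.1% and 37.3% rose and 28.2% and 29.7% fell, with medians of 0.17 and 0.10. HEY1, a repressor shared with Notch signaling, rose by 3.96 ± 0.14 (SE) without doxycycline and by 2.81 ± 0.14 with it, and it was the listed gene called with doxycycline alone, higher by 0.95 ± 0.14 (adjusted p = 0.00123). GATA3 rose by 2.66 ± 0.32 and 2.28 ± 0.32, TBX3 by 1.66 ± 0.19 and 0.85 ± 0.19 and GATA2 by 1.29 ± 0.24 and 0.87 ± 0.24, while RUNX2 fell by 1.01 ± 0.31 and 1.16 ± 0.31. Of 24 arrays, HEY1 was well above background on 22, GATA3 on 18 and RUNX2 on 21. DLX2, a homeobox gene, rose by 1.09 ± 0.05 and 0.50 ± 0.05, fell by 0.64 ± 0.05 in DoxyNaB against NaB (adjusted p = 2.19e-07), and had an interaction of 0.59 ± 0.07 (adjusted p = 9.31e-05). The interaction of HEY1 was 1.15 ± 0.20 (adjusted p = 0.00275), but HEY1 did not pass in DoxyNaB against NaB, at -0.20 ± 0.14 (adjusted p = 0.583).

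**Figure D5:**
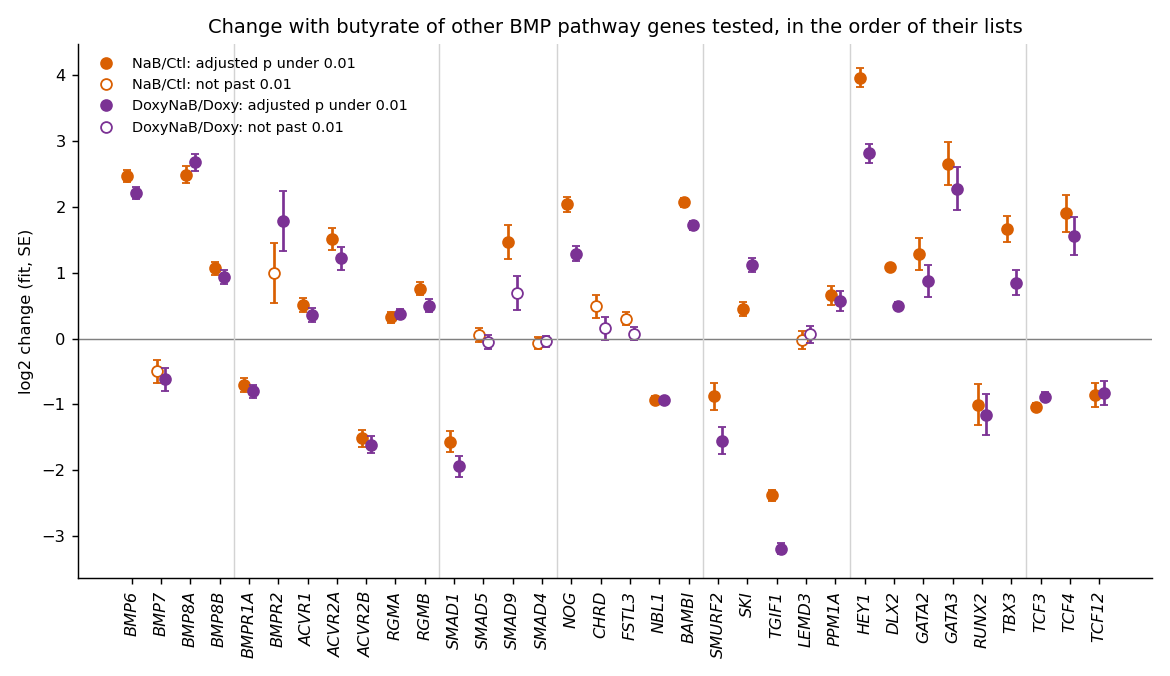
Log2 change with butyrate, with its SE from the fit over 24 arrays, of the tested genes of 7 lists around the BMP pathway (grey lines part the lists), without doxycycline (orange) and with it (purple); filled points passed an adjusted p of 0.01. HEY1 (3.96) is highest and TGIF1 (-2.38 and -3.19) lowest.

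Patterns over the 24 arrays, after each experiment was centred, are given as descriptions, since arrays of one treatment share that treatment. Among 11887 genes well above background on all arrays, those most like BMP4 were RNF115 (r = 0.994), ZBED5 (0.987), KITLG (0.986), TRIML2 (0.985) and GLMP (0.983). Those most like MSX1 were SP5 (0.981), MIR503HG (0.978), ANKRD49 (0.978), RND3 (0.977) and DLX2 (0.971). For ID1 the highest values were lower, with RAP1GDS1 at 0.892, NIPSNAP1 at 0.884, S100A6 at 0.883, GDF15 at 0.868 and ERRFI1 at 0.866. Within the members, ID2 followed MSX1 (r = 0.949) and MSX2 (0.947), ID1 followed ID3 (0.667), and BMP4 ran opposite to MSX2 (-0.824).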

How the data were processed

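The 24 arrays were 1-colour Agilent human arrays, and per the file headers the authors deposited scanner intensity values from Feature Extraction 9.5.3.1, background-subtracted but not normalized between arrays; the authors' own analysis used GeneSpring, with the methods' paired t-test. Members and gene lists were chosen with earlier results of these data known. Control spots and spots marked as outliers were left out, log2 of the processed signal was taken relative to the 75th percentile over the remaining spots of each array, and spots of a probe were averaged. A probe was tested when well above background on all 6 arrays of a treatment. Limma (3.58.1, in R 4.3.3) was fitted to all 24 arrays with experiment as a block, after the paired design of the study's methods, with Benjamini-Hochberg adjustment over 18962 probes; a call was an adjusted p below 0.01. The fit was tested on simulated data. A gene was represented by its tested probe of highest mean level.

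As a check of the pairing, deviations of same-numbered arrays from their treatment means correlated at -0.218 for NaB and DoxyNaB of experiment 3 and at 0.219 to 0.851 for the other pairs, 36 in all. The study calls the experiments biological replicates of 1 clone. Experiments 2 to 6 each lay on 1 slide, and experiment 1 on 2, one for the arrays with butyrate. Array number limits the precision. Named genes were all members, AXIN2 and TCF7L2, for each list and comparison up to 3 called genes of largest change, and for BMP4, ID1 and MSX1 the 5 genes of highest correlation; BMP7, SMAD4, SMAD5 and GATA2 were added after their values were seen. Probe symbols were updated through RefSeq accessions. Alternatives covered background correction, scaling, filters, the block, the arrays fitted, the test, thresholds and the rule for several probes; the percentile over probes was added after seeing the data.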

Additional observations from a re-analysis of the deposited data

Results flagged for a closer look

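In NaB and in Doxy, the ID1 level of experiment 1 stood apart from the other 5 arrays, above them by 0.727 and 0.806 of the range of the 6. In DoxyNaB, the MSX2 level of experiment 2 stood below the others by 0.643 of the range. Its MSX2 signal before scaling, 1370, was the highest of the DoxyNaB arrays. That array also had the highest 75th percentile, 1323, and the brightest negative controls, at 248.9. Of 44 probe and treatment groups examined, chance alone would mark about 1 in 20. The change with butyrate differed between cells without and with doxycycline for MSX1 (1.4425 on the log2 scale), BMP4 (0.9854) and ID3 (-0.5825), each by the interaction term of limma.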

How the results depend on the processing

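The BMP4, MSX2 and ID2 changes with butyrate and the BMP4 and MSX1 changes with doxycycline in the presence of butyrate kept their direction under all alternatives, but scaling to the median ended both ID2 calls. Called members numbered 7 in NaB/Ctl, 6 in DoxyNaB/Doxy, 0 in Doxy/Ctl, 5 in DoxyNaB/NaB and 3 in the interaction. Of all 18962 probes, 12945, 12712, 95, 471 and 235 were called, in the same order. Normexp background correction gave 3 in DoxyNaB/Doxy and 3 in DoxyNaB/NaB, beside 9370 and 109 of all probes. Scaling each array to its median, with signals floored at 5, gave 2 in DoxyNaB/NaB and 0 in the interaction. It turned the DoxyNaB/Doxy values of MSX1 to -0.093 and of ID3 to -0.26. The median of all probes in NaB/Ctl moved from 0.17 to -0.56. The share of all calls that were above 0 changed from 58.7% to 22.5% there and from 55.6% to 26.8% in DoxyNaB/Doxy. In DoxyNaB/NaB that share went from 24.8% of 471 calls to 42.2% of 45. In the interaction it went from 82.6% of 235 calls to 11.1% of 9. Most calls of these last comparisons were thus lost, and their shares after scaling rest on few. The fit with no replicate block gave 3 in DoxyNaB/NaB, and the fit of the compared arrays alone gave 2, beside 177 and 130 of all probes. Experiments 2 to 4 alone gave 4 in NaB/Ctl, 2 in DoxyNaB/NaB and 0 in the interaction, beside 10048, 39 and 5 of all probes. Experiments 5 and 6 alone gave 0 in DoxyNaB/NaB and in the interaction, beside 3 and 0 of all probes. The methods' t-test after Benjamini-Hochberg adjustment gave 4 in NaB/Ctl, 3 in DoxyNaB/Doxy and 0 in DoxyNaB/NaB and in the interaction. Of all probes it called 11074, 9620, 25 and 0, in the same order, so the last 2 comparisons kept almost no calls. At an unadjusted p below 0.01 that t-test gave 1 in Doxy/Ctl, beside 1340 of all probes. An adjusted p below 0.05 gave 1 in Doxy/Ctl, beside 222 of all probes. A 2-fold minimum gave 3 in DoxyNaB/Doxy, 2 in DoxyNaB/NaB and 1 in the interaction, beside 5801, 71 and 74 of all probes. Leaving out each experiment in turn gave 5 to 7, 5 to 7, 0, 3 to 5 and 2 to 3 calls. The 3 in DoxyNaB/NaB came without experiment 6, beside 292 of all probes. The causes were not tested. BMP2 and ID4 had too little signal over background to be tested. SMAD6 stood well above background on 5 of 6 NaB and 6 of 6 DoxyNaB arrays, and SMAD7 on 6 of 6 in each. Their lowest DoxyNaB signals were 32.9 for SMAD6 and 40.1 for SMAD7.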
